A study of Mus musculus with 9 samples.

Results

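The 9 genes described here encode chemokines that draw monocytes into tissue and receptors that monocytes carry. They are Ccl2, Ccl3, Ccl4, Ccl6, Ccl7, Ccl8 and Ccl9 (ligands) and Ccr2 and Cx3cr1 (receptors), and they were taken by symbol from the 32285 genes of the deposited matrices. All 9 symbols matched 1 gene each. Their RNA was counted in nuclei of mouse epididymal adipose tissue (epiAT), a visceral fat depot beside the testis, by droplet single-nucleus RNA sequencing (snRNA-seq). The study asked what obesity leaves behind in this tissue after weight loss (WL).

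All mice were male C57BL/6J without a transgene, and each of the 9 diet groups was 1 library of nuclei pooled from 5 mice, so that no value belongs to a single animal. Chow was the only diet of C, CC and CCC, which were 18, 26 and 39 weeks old. The methods state that the C mice were on the low-fat control diet, and CC and CCC had been moved to a standard chow. H stands for 12 weeks on high-fat diet (HFD, killed at 18 weeks of age) and HH for 25 weeks on it (killed at 31 weeks). HC mice had 12 weeks of HFD and then 8 weeks of chow (26 weeks old), and HHC mice had 25 weeks of HFD and then 8 weeks of chow (39 weeks old). CCH mice first met HFD after 26 weeks on chow and ate it for 4 weeks (30 weeks old). HCH mice had 12 weeks of HFD and 8 weeks of chow before another 4 weeks of HFD (30 weeks old). The labels also place each library in a sequencing set, S075 for C, H, HH, CCH and HCH and S019 for CC, CCC, HC and HHC. Both HFD libraries were thus in S075 and both WL libraries in S019.

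Chemokines are small secreted proteins that bind to matrix and guide leukocytes along their gradients through receptors coupled to G proteins. Ccl2 and Ccl7 act on Ccr2, which classical monocytes need to leave the bone marrow and which is lost as monocytes mature into macrophages. Cx3cr1 binds the membrane-tethered chemokine Cx3cl1 and marks patrolling monocytes and several resident macrophages. In obese adipose tissue, monocyte recruitment along the Ccl2 and Ccr2 axis is a well-known source of new macrophages.

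The ligand genes lay in 2 groups on chromosome 11 (GRCm38, GENCODE vM21 annotation, all protein-coding). The monocyte chemoattractant genes Ccl2 (ENSMUSG00000035385, chr11:82035571-82037453), Ccl7 (ENSMUSG00000035373, chr11:82045712-82047525) and Ccl8 (ENSMUSG00000009185, chr11:82115185-82116799) were all on the plus strand, with 8258 bases between Ccl2 and Ccl7 and 67659 between Ccl7 and Ccl8. Ccl9 (ENSMUSG00000019122, chr11:83572919-83578636) and Ccl6 (ENSMUSG00000018927, chr11:83587882-83593087), rodent chemokines that act on Ccr1, followed each other on the minus strand, 9245 bases apart. Ccl3 (ENSMUSG00000000982, chr11:83647844-83649355, minus strand) and Ccl4 (ENSMUSG00000018930, chr11:83662584-83664683, plus strand), the macrophage inflammatory proteins, were 13228 bases apart. The receptor genes were on chromosome 9, Ccr2 (ENSMUSG00000049103) at chr9:124101950-124113557 on the plus strand and Cx3cr1 (ENSMUSG00000052336) at chr9:119901616-120069879 on the minus strand. The annotated span of Cx3cr1 covered 168264 bases and overlapped 9 other genes, of which Gorasp1, Csrnp1 and Xirp1 lay on the same strand, whereas RefSeq gives Cx3cr1 19614 bases. Intronic reads were counted in these data, so reads from inside that span can count for Cx3cr1, and their part in its values was not tested. Ccl2 overlapped Gm17268 and Ccl6 overlapped E230016K23Rik, each on the opposite strand.

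The sequences just upstream of 4 ligand genes are shown, Ccl3 for its difference between diets, Ccl8 for its level in perivascular macrophages, and the neighbours Ccl6 and Ccl9 for their shared cell class and their likeness across libraries. They are the 250 bases before the RefSeq start of each gene (GRCm38.p6), written 5′ to 3′ on the strand of the gene. RefSeq promoters matched 6 of the 9 genes. In Ccl3 (chr11:83649379-83649628, minus strand) and Ccl8 (chr11:82114935-82115184, plus strand), capitals mark a match on either strand to TATAAA, the core of the TATA box, or to GGAAGT, an ETS-type motif of the kind bound by the myeloid factor PU.1. In Ccl6 (chr11:83593088-83593337, minus strand) and Ccl9 (chr11:83578637-83578886, minus strand), capitals mark runs of 10 or more bases that the pair of sequences share.
Ccl3: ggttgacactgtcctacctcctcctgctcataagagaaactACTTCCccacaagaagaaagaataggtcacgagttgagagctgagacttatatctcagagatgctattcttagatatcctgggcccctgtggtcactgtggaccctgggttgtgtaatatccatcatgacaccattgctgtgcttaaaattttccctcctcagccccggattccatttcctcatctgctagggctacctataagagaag
Ccl8: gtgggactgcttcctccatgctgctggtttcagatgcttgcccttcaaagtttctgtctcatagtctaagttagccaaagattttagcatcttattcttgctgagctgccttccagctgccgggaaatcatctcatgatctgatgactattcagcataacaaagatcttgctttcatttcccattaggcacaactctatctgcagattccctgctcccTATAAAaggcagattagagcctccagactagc
Ccl6: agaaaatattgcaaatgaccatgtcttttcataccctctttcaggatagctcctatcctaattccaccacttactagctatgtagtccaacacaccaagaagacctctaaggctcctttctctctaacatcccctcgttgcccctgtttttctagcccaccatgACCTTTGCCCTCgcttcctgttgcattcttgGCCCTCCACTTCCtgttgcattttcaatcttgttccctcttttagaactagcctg
Ccl9: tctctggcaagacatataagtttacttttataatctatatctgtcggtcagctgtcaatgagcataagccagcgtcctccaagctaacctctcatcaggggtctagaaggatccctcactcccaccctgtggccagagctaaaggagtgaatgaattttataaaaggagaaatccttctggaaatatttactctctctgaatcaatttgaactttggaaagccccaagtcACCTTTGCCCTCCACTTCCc
Ccl9 had its longest run of 19 shared bases, ACCTTTGCCCTCCACTTCC, near its start site, and Ccl6 held these letters as 2 runs of at most 13 bases. TATAAA occurred in Ccl8 and Ccl9 and in 12.4% of the 32851 promoters of the same length, and GGAAGT occurred in Ccl3, Ccl6 and Ccl9 and in 19.7% of all. A match to the NF-kB consensus was present in Ccl9 and in 7.25% of all. The motifs were searched on both strands, and a match is only a description of these letters. In Ccl6 and Ccl9 the GGAAGT match, read as ACTTCC on the strand shown, lay inside a shared run.

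The libraries held 91687 barcodes and 408905640 unique molecular identifiers (UMIs, counts of captured RNA molecules), of which 73156 nuclei remained after filters and doublet removal, from 3989 in CC to 12560 in HH. The median nucleus had 1896 (HH) to 3097 UMIs (CCH), and libraries shared 8 to 55 barcodes per pair. Nuclei were given a cell class from fixed marker genes that include none of the 9 genes, and 21675 nuclei were macrophage-like, from 455 in CC to 5299 in HH. Of the 12 macrophage markers, all but Fcgr1 were common in these nuclei and exceeded their level elsewhere by 2-fold or more. A monocyte class could not be gated, since only 3 nuclei held enough monocyte markers to seed it, and no neutrophil class could be gated either (2 nuclei). So no value below is that of a separate monocyte class, and monocytes may lie inside the other classes. Levels are counts per 1000000 (CPM), the UMIs of a gene per 1000000 UMIs of that class in that library, and they carry exact Poisson 95% intervals that cover counting error only. RNA released from broken cells enters all droplets, so mesothelial-like nuclei, the lining cells of the depot, served as the level that free RNA reaches in each library. That level differed between libraries. Lyz2, a lysozyme gene of macrophages, was at 16.6 to 47.8 CPM in mesothelial-like nuclei of the 3 chow libraries at 707 and 865 in H and HH, at 94.3 and 433 in HC and HHC, and at 78.1 and 539 in CCH and HCH.

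The classes were first compared within libraries, each library serving as its own control. In macrophage-like nuclei, 8 of the 9 genes were higher than in the mesothelial-like nuclei beside them (edgeR's quasi-likelihood test with the library as block, Benjamini-Hochberg adjustment over 14375 genes, 9 libraries). Of all genes tested, 33.9% were higher and 30.5% lower, and the median difference of the 9 genes was 2.41 on the log2 scale against 0.05 over all genes. Ccl3, which calls in monocytes and lymphocytes, differed by a log2 value of 4.11 ± 0.54 (SE, edgeR adjusted p = 5.63e-05). Its partner Ccl4 differed by 3.15 ± 0.31 and Ccr2 by 3.10 ± 0.24 (edgeR adjusted p = 1.48e-06 and 1.88e-07). Ccl6 was higher by 2.95 ± 0.29 and Ccl9 by 2.41 ± 0.26 (edgeR adjusted p = 1.61e-06 and 3.48e-06). The monocyte chemoattractants showed smaller differences, 1.65 ± 0.24 for Ccl7, 1.31 ± 0.14 for Ccl8 and 1.16 ± 0.26 for Ccl2 (edgeR adjusted p = 5.08e-05, 3.37e-06 and 0.00164). These 8 calls were kept in all 14 alternatives, each library left out in turn included. Cx3cr1 did not pass, with a difference of 0.37 ± 0.19 (edgeR adjusted p = 0.108). It passed when nuclei were classed by clusters or kept without a limit on genes. The p-values measure how the class difference within a library varied over the 9 libraries of pooled mice, each a different diet group.

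Within single libraries only counting error is known. The macrophage-like interval lay wholly above the mesothelial-like interval in 9 of 9 libraries for Ccl6, Ccl9 and Ccr2, in 6 for Ccl4 and Ccl8, in 5 for Ccl2 and Ccl7, in 4 for Ccl3 and in 2 for Cx3cr1. Over all kept nuclei, macrophage-like nuclei held 72.4% of the 30578 UMIs of Ccl6 and 70.0% of the 1033 UMIs of Ccl3, but 34.2% of the 2238 UMIs of Ccl7, 39.5% of the 5356 of Ccl2 and 39.1% of the 2508 of Cx3cr1. They held 29.6% of all UMIs of kept nuclei.

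**Figure D1:**
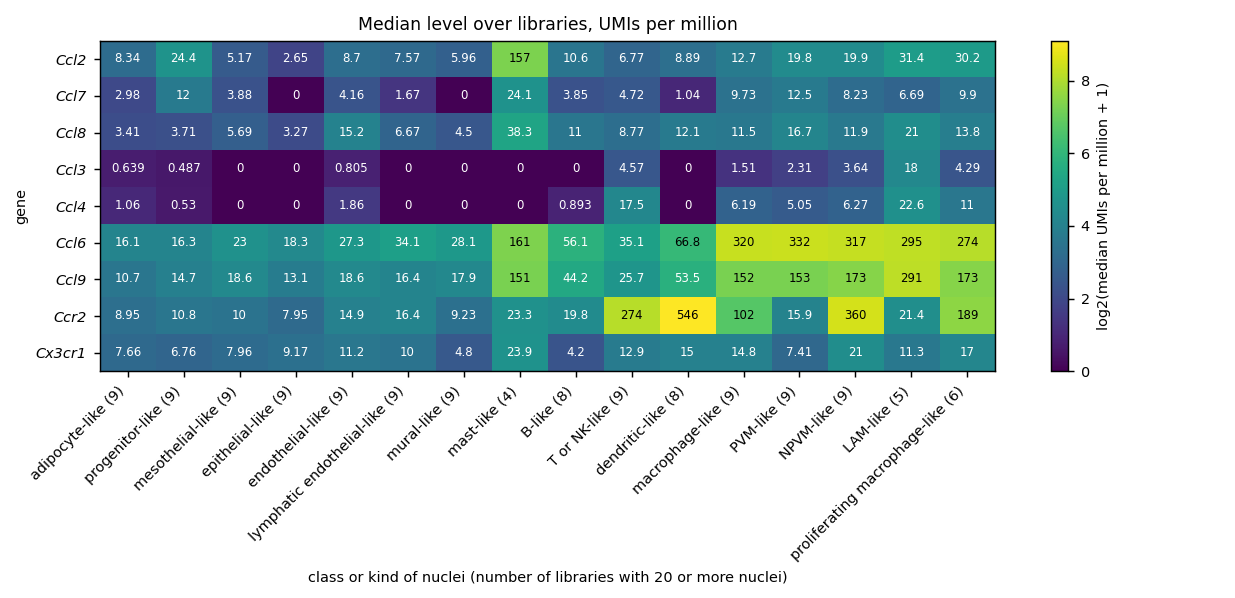
Median CPM over libraries of each of the 9 genes (rows) in each cell class and kind of macrophage (columns), printed in each cell of the heat map, with colour on a log scale. Ccr2 stands out in dendritic-like nuclei (median 546 CPM) and T- or NK-like nuclei (median 274 CPM), Ccl6 and Ccl9 in all macrophage kinds, and Ccl2 in mast-like nuclei (median 157 CPM).

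Stromal progenitors stood above mesothelial-like nuclei for 2 of the 9 genes. In progenitor-like nuclei, the fibroblast-like precursors of adipocytes, Ccl7 was higher than in mesothelial-like nuclei by 2.37 ± 0.21 on the log2 scale and Ccl2 by 1.53 ± 0.18 (edgeR adjusted p = 1.30e-07 and 3.32e-06, 9 libraries), where 24.9% of 14473 genes were higher and 23.7% lower. Both calls were kept in all 14 alternatives. The other 5 genes tested there lay between -0.21 (Cx3cr1) and 0.16 (Ccl8) and did not pass. Ccl3 and Ccl4 had too few UMIs to be tested. In progenitor-like nuclei Ccl2 was at 24.4, 3.86 and 6.89 CPM in C, CC and CCC, 84.5 and 70.6 in H and HH, 2.44 and 19.6 in HC and HHC, and 25.9 and 38.8 in CCH and HCH. The H and HH values were the highest and HC was the lowest. The WL library HHC lay below C of the other sequencing set, but above CC and CCC of its own set. Ccl7 was at 12.0, 2.57 and 4.77 CPM in C, CC and CCC, 52.0 and 44.0 in H and HH, 1.71 and 8.28 in HC and HHC, and 17.4 and 16.9 in CCH and HCH. CCH and HCH differed by less than counting error for Ccl7, with a log2 ratio of -0.04 (95% interval -0.40 to 0.32). For both Ccl2 and Ccl7, every S075 library was above every S019 library, so diet and sequencing set moved together in these nuclei. Mast-like nuclei, tissue granulocytes known as chemokine producers, held Ccl2 at 161 CPM in H, 153 in HH, 39.1 in HHC and 169 in HCH, the 4 libraries with enough of them. The 95% interval of their ratio to mesothelial-like nuclei lay wholly above equality in 3 of the 4. The highest Ccl2 over libraries was 97.8 CPM in adipocyte-like and 67.0 in endothelial-like nuclei, with medians of 8.34 and 8.70. The highest Ccl7 in adipocyte-like nuclei was 41.6 CPM, with a median of 2.98. No fit compared the adipocyte-like or endothelial-like nuclei with mesothelial-like nuclei.

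Ccr2, the receptor for Ccl2 and Ccl7, was not a macrophage gene alone. In dendritic-like nuclei, antigen-presenting cells, it was at 279 and 561 CPM in C and CCC, 715 and 663 in H and HH, 227 and 296 in HC and HHC, and 531 and 794 in CCH and HCH, and above mesothelial-like nuclei by 4.95 ± 0.21 on the log2 scale (edgeR adjusted p = 2.21e-15, 8 libraries, 24.7% of 10337 genes higher and 29.9% lower). Of the 628 dendritic-like nuclei, 249 fell in clusters named for macrophages. Of those clusters, 1 each in H, HHC and HCH held more dendritic markers (4, 4 and 3) than markers of any other class. In T- or NK-like nuclei, the lymphocytes, Ccr2 was at 407, 90.3 and 184 CPM in C, CC and CCC, 474 and 274 in H and HH, 115 and 96.0 in HC and HHC, and 325 and 354 in CCH and HCH. All 9 of these values lay above the mesothelial-like interval, and the difference was 4.01 ± 0.25 (edgeR adjusted p = 1.81e-11, 26.6% of 11629 genes higher and 26.8% lower). Ccl3 and Ccl4 were higher in these lymphocytes as well, by 3.98 ± 0.71 and 3.93 ± 0.42 (edgeR adjusted p = 1.00e-04 and 1.04e-07), and Ccl8 by 1.04 ± 0.26 (edgeR adjusted p = 0.00238). Ccl6 and Ccl9 also passed in both classes with differences of 0.54 to 0.72. The 12 macrophage markers summed to 447 to 3559 CPM in T- or NK-like nuclei and to 904 to 2353 CPM in mesothelial-like nuclei over the 9 libraries, and their part in the Ccl6, Ccl8 and Ccl9 differences was not tested. Among T- or NK-like nuclei Ccl9 lost its call in 7 of 14 alternatives, without each of H, HH, HHC and HCH, without a filter, without the limit on genes and with doublets kept (highest edgeR adjusted p 0.283). Ccl6 lost it in 3 of 14, without HHC or HCH and without a filter (highest 0.0850). In the dendritic-like nuclei Ccl9 lost it without each of HH, CCH and HCH and without a filter, and reached an adjusted p of 0.938 with clusters in place of the gate.

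Among macrophages, Ccr2 separated NPVM-like from PVM-like and LAM-like nuclei. Macrophage-like nuclei were split by fixed markers into perivascular macrophages (PVM-like, 3577 nuclei with resident scavenger receptor genes), non-perivascular macrophages (NPVM-like, 6651 nuclei with MHC class II genes) and lipid-associated macrophages (LAM-like, 6542 nuclei with Trem2 and Gpnmb). Ccr2 was higher in NPVM-like than in PVM-like nuclei by 4.02 ± 0.15 on the log2 scale (edgeR adjusted p = 5.27e-14, 9 libraries), the 23rd highest of the 11778 genes tested, of which 13.3% were higher and 14.4% lower. Scaled by library totals, 62.1% of the called genes were higher in place of 48.0%. In NPVM-like nuclei Ccr2 was at 400, 149 and 438 CPM in C, CC and CCC, 360 and 238 in H and HH, 82.5 and 114 in HC and HHC, and 571 and 444 in CCH and HCH. In PVM-like nuclei it was at 12.6, 15.9 and 26.3 CPM in C, CC and CCC, 14.4 and 16.8 in H and HH, 2.31 and 13.2 in HC and HHC, and 28.6 and 40.4 in CCH and HCH. A further kind, 616 proliferating nuclei with cell cycle genes, held Ccr2 at 61.3 to 553 CPM in 6 libraries, which overlapped the NPVM-like values. The 3 clusters with mostly dendritic markers held 84, 55 and 344 of the NPVM-like nuclei of H, HHC and HCH. Clusters that shared at least 4 of 10 leading genes with 1 of them held 136 in C, 290 in HH and 295 in CCH, and the HH cluster had 2 monocyte markers as its largest count. Only clusters named for macrophages were searched, so unnamed clusters of CC and CCC with Cd226 among their leading genes stayed in. In 5 other clusters named for macrophages, in H, HH, HHC and HCH, the largest count was 1 monocyte marker. Nuclei with dendritic or monocyte markers inside the macrophage-like class were not separated further. Without all 6 of the clusters alike, a choice made after seeing the data, Ccr2 in NPVM-like nuclei was at 60.0 CPM in C (12 UMIs), 233 and 107 in H and HH, 66.3 in HHC, and 206 and 280 in CCH and HCH. Cx3cr1 was then at 10.0 CPM in C (2 UMIs), 28.3 and 21.4 in H and HH, 18.9 in HHC, and 5.06 (4 UMIs) and 17.95 in CCH and HCH. Every NPVM-like value of Ccr2 lay above every PVM-like value, with or without those NPVM-like nuclei. The PVM-like interval was above the mesothelial-like interval in 1 of 9 libraries. A Ccr2 UMI was seen in 13.4% (HC) to 53.9% (CCH) of NPVM-like nuclei. After thinning each nucleus to 1000 UMIs the share was 6.34% to 34.3%, against 0.465% (HC) to 4.67% (HCH) in mesothelial-like nuclei.

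Cx3cr1 followed Ccr2 in direction between these kinds, and Ccl7 and Ccl8 went the other way. Cx3cr1 was higher in NPVM-like than PVM-like nuclei by 1.36 ± 0.19 (edgeR adjusted p = 1.02e-05), from 3.64 to 36.7 CPM against 1.26 to 15.1 CPM over the 9 libraries, so that the ranges overlapped. The NPVM-like interval lay above the mesothelial-like interval in 3 of 9 libraries. Ccl8 was lower in NPVM-like nuclei by a log2 value of -1.36 ± 0.24 and Ccl7 by -1.31 ± 0.22 (edgeR adjusted p = 1.49e-04 and 6.05e-05). Ccl8 was no longer called when nuclei with more than 3000 genes were kept (edgeR adjusted p = 0.0905). Ccl9 and Ccl6 passed with small differences of 0.28 ± 0.08 and -0.25 ± 0.08 (edgeR adjusted p = 0.0125 and 0.0282). Ccl6 lost its call in 8 of 14 alternatives, without each of C, CC, H, HH and HCH, under library totals, without the limit on genes and with doublets kept, with adjusted p up to 0.135. Ccl2, Ccl3 and Ccl4 did not pass, with differences of 0.01, 0.64 and 0.32.

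LAM-like nuclei were compared with NPVM-like nuclei in the 5 libraries that held at least 20 of each, H, HH, HC, HHC and HCH. Ccr2 was lower in LAM-like nuclei by a log2 value of -3.30 ± 0.14 and Cx3cr1 by -1.04 ± 0.14 (edgeR adjusted p = 1.17e-11 and 1.06e-05), with 13.6% of 13942 genes higher and 13.4% lower. Ccr2 was at 25.9 and 20.6 CPM in H and HH, 4.81 and 21.4 in HC and HHC, and 44.2 in HCH in LAM-like nuclei, below every NPVM-like value. Ccl3 was higher in LAM-like nuclei by 0.85 ± 0.16 and Ccl4 by 0.46 ± 0.16 (edgeR adjusted p = 4.89e-04 and 0.0330). Ccl4 lost its call without each of H, HH and HCH, with adjusted p up to 0.373. Ccl3 was at 26.8 and 32.6 CPM in H and HH, 1.20 and 6.84 in HC and HHC, and 18.0 in HCH in LAM-like nuclei, the highest values being those of mice on HFD. Ccl8 and Ccl6 were lower in LAM-like nuclei by -0.77 ± 0.12 and -0.45 ± 0.08 (edgeR adjusted p = 6.89e-05 and 2.49e-04), while Ccl2, Ccl7 and Ccl9 did not pass, with differences of 0.03, -0.46 and -0.05.

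Diet was then compared within macrophage-like nuclei. No group had a second library, so the only fit with an error between libraries took the libraries of a diet state together, chow (C, CC, CCC), HFD (H, HH) and WL (HC, HHC), which differ in age, time on diet and sequencing set. The kinds within the class differed too. LAM-like nuclei were at most 0.625% of macrophage-like nuclei in the 3 chow libraries, 48.4% and 32.1% in H and HH, and 26.6% and 64.2% in HC and HHC, and PVM-like nuclei were 53.8%, 51.9% and 34.8% in C, CC and CCC, 8.98% and 6.38% in H and HH, and 16.2% and 4.43% in HC and HHC. Since 8 of the 9 genes, all but Ccl2, differed between kinds, a change in the mix of kinds and a change within a kind cannot be told apart in sums over the class. RNA measures moved with the diets as well. The ribosomal protein genes took 0.299% to 0.486% of the UMIs of macrophage-like nuclei in chow, 0.882% and 1.01% in H and HH, and 0.371% and 0.669% in HC and HHC, and mitochondrial genes took 0.243% to 0.712% in chow, 1.11% and 0.871% in H and HH, and 1.91% and 3.03% in HC and HHC. In HCH and CCH, LAM-like nuclei were 14.4% and 0.219% of macrophage-like nuclei, PVM-like nuclei 11.4% and 45.3%, and the ribosomal protein share was 1.05% and 0.392%. The part of these RNA measures in the differences was not tested. In HFD against chow, 5 of the 9 genes were higher and none lower, with 17.6% of 16710 genes higher and 15.8% lower. They were Ccl3, Ccl4, Ccl8, Ccl9 and Cx3cr1. The median difference of the 9 genes was 1.66 on the log2 scale against 0.02 over all genes, and scaling by library totals moved the latter to 0.12. In WL against chow, Ccl3 was higher and Ccr2 lower, with 3.87% of all genes higher and 2.24% lower. DESeq2 called 7 of the 9 for HFD, Ccl2 and Ccl6 in addition. With the sequencing set as a further term, 3374 genes were called for HFD, and Ccl3 was the only one of the 9 among them. None of the 9 was called for WL with that term (4 at an unadjusted p under 0.05 by edgeR), while DESeq2 without it called 3. The shares of all genes by DESeq2 or at an unadjusted p are not given, so those counts stand without a background.

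**Figure D2:**
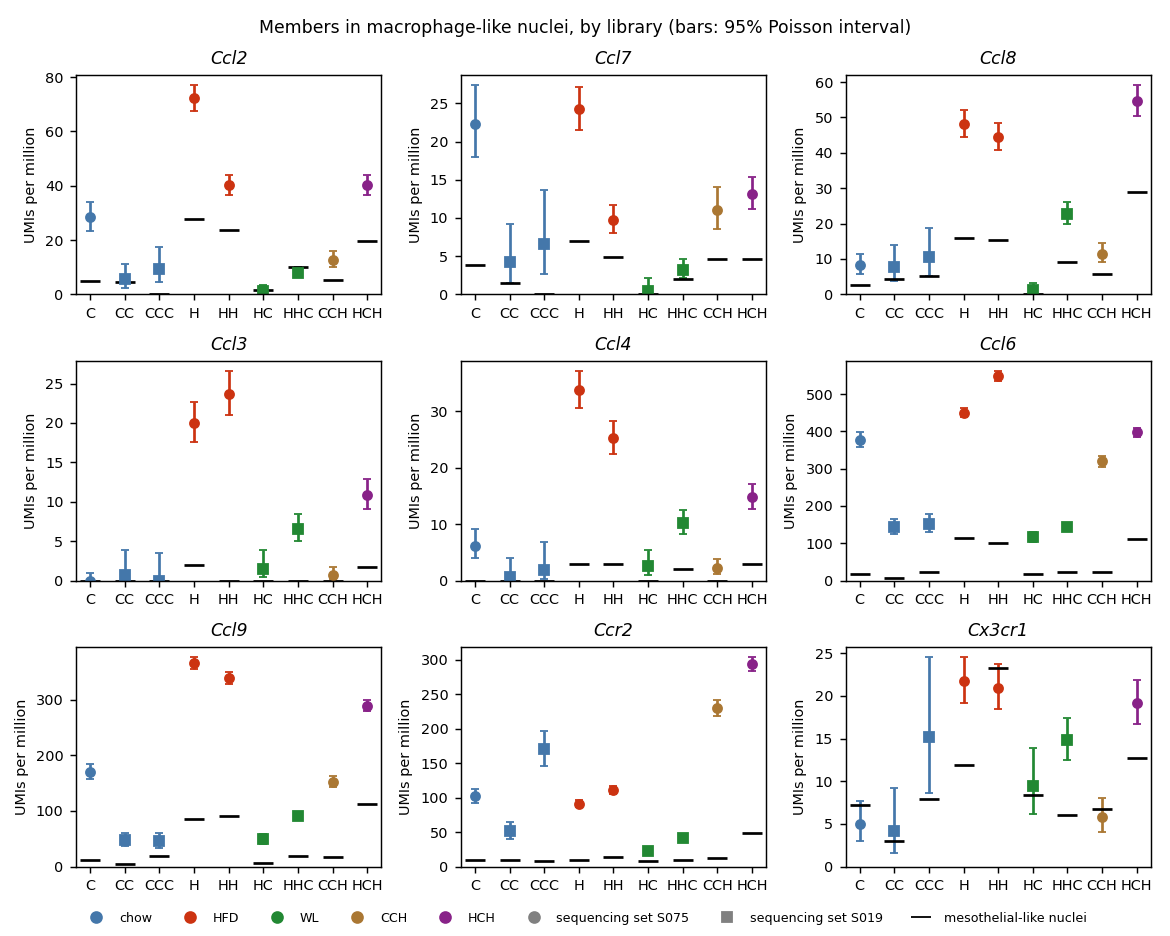
CPM of each of the 9 genes in macrophage-like nuclei of the 9 libraries, with 95% Poisson intervals as bars and the mesothelial-like level of the same library as a black dash. Ccl3 was at 0 to 0.702 CPM in the 3 chow libraries and at 19.96 and 23.6 in H and HH, while Ccr2 was highest in CCH (230) and HCH (294) and lowest in HC (22.7).

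Ccl3 had the largest fitted HFD difference of the 9 genes. Macrophage-like nuclei held 0, 1 and 0 UMIs of Ccl3 in C, CC and CCC, 245 and 282 in H and HH, 4 and 63 in HC and HHC, and 4 and 124 in CCH and HCH. A count of 0 allows up to 0.743 CPM in C and 2.84 CPM in CCC, counting error only. The level was 19.96 CPM in H, 23.6 in HH, 6.57 in HHC and 10.9 in HCH, and at most 1.51 in the other 5 libraries. H was at least 26.9-fold and HH at least 31.8-fold higher than C of the same sequencing set, and HHC at least 2.31-fold higher than CCC, each against the limit of 3 counts in the chow library. The fitted log2 difference of HFD and chow was 6.83 ± 0.90 (edgeR adjusted p = 0.00108), which depends on the prior count of the fit and is no bound, and the call was kept in all 16 alternatives. For WL it was 4.65 ± 1.06 (edgeR adjusted p = 0.0334). That call was lost without each of C, CC, CCC, H, HH and HHC, with the sequencing set as a term and with age-matched pairs as block (edgeR adjusted p = 0.120), with adjusted p up to 0.290 over the alternatives. Within NPVM-like nuclei alone, Ccl3 had 0, 1 and 0 UMIs in C, CC and CCC, 20 and 88 in H and HH (10.9 and 20.7 CPM), and 0 and 8 in HC and HHC. Over all macrophage-like nuclei, HCH exceeded CCH by 16.7-fold (log2 ratio 4.06, 95% interval 2.67 to 5.96), and within NPVM-like nuclei, where CCH had 2 UMIs and HCH 70, by 10.5-fold (log2 ratio 3.39, 1.49 to 6.47). Mesothelial-like nuclei held 2 UMIs of Ccl3 in H, 0 in HH, 0 in HHC and 3 in HCH.

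Ccl4, the neighbour of Ccl3, was also higher on HFD. It was at 6.19, 0.702 and 1.89 CPM in C, CC and CCC, 33.7 and 25.2 in H and HH, 2.65 and 10.2 in HC and HHC, and 2.27 and 14.8 in CCH and HCH. The HFD values did not overlap the chow values, and HHC and HCH lay above all chow libraries. The fitted difference was 2.84 ± 0.62 for HFD (edgeR adjusted p = 0.00797) and 0.86 ± 0.66 for WL (edgeR adjusted p = 0.504). The HFD call was lost in 1 of 16 alternatives, with the sequencing set as a term (edgeR adjusted p = 0.0583). Within sequencing sets, H exceeded C by 5.45-fold (log2 ratio 2.45, 95% interval 1.86 to 3.09), HHC exceeded CCC by 5.40-fold (log2 ratio 2.43, 0.54 to 5.50) and HCH exceeded CCH by 6.51-fold (log2 ratio 2.70, 1.92 to 3.60). Within NPVM-like nuclei alone, HCH exceeded CCH by 2.81-fold (log2 ratio 1.49, 0.59 to 2.54). These ratios depended on the clusters with dendritic markers or the same leading genes. Without them, Ccl4 over macrophage-like nuclei was at 3.40 CPM in C (11 UMIs), 33.7 in H, 1.26 in CCH (6 UMIs) and 15.2 in HCH.

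Among the kinds of macrophage, Ccl8 was highest in PVM-like nuclei of H, HH and HCH. In mast-like nuclei it reached 141 CPM. Over macrophage-like nuclei it was at 8.17, 7.72 and 10.4 CPM in C, CC and CCC, 48.2 and 44.5 in H and HH, 1.13 and 22.8 in HC and HHC, and 11.5 and 54.7 in CCH and HCH. H, HH, HHC, CCH and HCH were above every chow library, CCH by little, and HC was below. HHC exceeded CCC by a log2 ratio of 1.13, which turned to -1.03 when nuclei with more than 3000 genes were kept. The HFD difference was 2.31 ± 0.67 (edgeR adjusted p = 0.0266). It was lost without each of C, CC, CCC, H and HH, with the sequencing set as a term, with clusters in place of the gate and without the limit on genes, with adjusted p up to 0.210. In PVM-like nuclei Ccl8 was at 10.1, 8.55 and 16.7 CPM in C, CC and CCC, 205 and 124 in H and HH, 2.31 and 22.7 in HC and HHC, and 11.8 and 108 in CCH and HCH. There H exceeded C by 20.3-fold (log2 ratio 4.35, 95% interval 3.74 to 5.02) and HCH exceeded CCH by 9.15-fold (log2 ratio 3.19, 2.66 to 3.76). In mesothelial-like nuclei Ccl8 was at most 5.69 CPM in the chow and CCH libraries and at 15.9, 15.5, 9.02 and 29.0 in H, HH, HHC and HCH.

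Ccl9 and Ccl6 were seen in many macrophage-like nuclei, a Ccl6 UMI in 22.9% (CCC) to 61.4% (HCH) and a Ccl9 UMI in 8.54% (CCC) to 52.0% (HCH). Ccl9 was at 171, 47.7 and 45.4 CPM in C, CC and CCC, 365 and 339 in H and HH, 49.6 and 91.3 in HC and HHC, and 152 and 289 in CCH and HCH. The HFD difference of Ccl9 was 1.81 ± 0.52 (edgeR adjusted p = 0.0244). It was lost without each of CC, CCC, H and HH and with the sequencing set as a term, with adjusted p up to 0.0825. Ccl6 was at 378, 145 and 152 CPM in C, CC and CCC, 450 and 549 in H and HH, 117 and 142 in HC and HHC, and 320 and 398 in CCH and HCH. Its HFD difference of 1.00 ± 0.39 did not pass (edgeR adjusted p = 0.0754), but did in 4 of 16 alternatives, with DESeq2, under library totals, without a filter and without C (lowest adjusted p 0.00164, without C). For both genes C stood apart from the other chow libraries, and the 5 libraries of set S075 were above the 4 of set S019, so diet and sequencing set moved together here. Within S075, H exceeded C by 2.14-fold for Ccl9 (log2 ratio 1.10, 95% interval 0.98 to 1.22) and by 1.19-fold for Ccl6 (log2 ratio 0.25, 0.17 to 0.33). Within S019, HHC exceeded CCC by 2.01-fold for Ccl9 (log2 ratio 1.01, 0.59 to 1.46), while for Ccl6 the log2 ratio was -0.10 (-0.34 to 0.15).

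Ccl2 and Ccl7 did not pass for HFD in macrophage-like nuclei. Ccl2, the best known of these recruiting signals, was at 28.5, 5.62 and 9.47 CPM in C, CC and CCC, 72.2 and 40.2 in H and HH, 1.13 and 8.03 in HC and HHC, and 12.7 and 40.1 in CCH and HCH. The HFD values were above the chow values, but C lay far above CC and CCC, and the difference of 1.66 ± 0.63 had an edgeR adjusted p of 0.0684. It passed in 6 of 16 alternatives, with DESeq2, without a filter, without the limit on genes and without each of C, HC and HHC (lowest adjusted p 0.0173, without C). Against C alone, H was 2.54-fold and HH 1.41-fold higher (log2 ratios 1.34, 1.06 to 1.64, and 0.50, 0.20 to 0.81). Ccl7 was at 22.3, 4.21 and 6.63 CPM in C, CC and CCC, 24.2 and 9.73 in H and HH, 0.378 and 3.23 in HC and HHC, and 11.05 and 13.1 in CCH and HCH. Chow and HFD values overlapped, and the difference was 0.31 ± 0.68 (edgeR adjusted p = 0.748). For both Ccl2 and Ccl7, every S075 library was above every S019 library, so diet and sequencing set moved together here too.

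Cx3cr1 was higher in macrophage-like nuclei on HFD. It was at 4.95, 4.21 and 15.1 CPM in C, CC and CCC, 21.8 and 21.0 in H and HH, 9.46 and 14.8 in HC and HHC, and 5.85 and 19.2 in CCH and HCH. The difference was 1.46 ± 0.43 (edgeR adjusted p = 0.0278). It was lost without each of C, CC, H and HH and with the sequencing set as a term, with adjusted p up to 0.129. The mesothelial-like level of Cx3cr1 was 11.9 CPM in H and 23.2 in HH, so that HH was not above it, and the part of free RNA in this difference was not tested.

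Ccr2 was lower after weight loss under the main settings. Over macrophage-like nuclei it was at 102, 51.9 and 170 CPM in C, CC and CCC, 91.3 and 112 in H and HH, 22.7 and 42.0 in HC and HHC, and 230 and 294 in CCH and HCH. Both WL values were below all other libraries, and HFD and chow overlapped. Without the clusters with dendritic markers or the same leading genes, C fell to 15.8 CPM (51 UMIs), below HC at 22.7 (60 UMIs) and HHC at 29.99 (279 UMIs). The WL difference was -1.69 ± 0.41 (edgeR adjusted p = 0.0427) and the HFD difference -0.16 ± 0.38 (edgeR adjusted p = 0.764). The WL call was lost without each of C, CCC, H, HH, HC and HHC, under library totals, with the sequencing set as a term and with clusters in place of the gate, with adjusted p up to 0.302, and kept with age-matched pairs as block (edgeR adjusted p = 8.04e-04). The fit with age-matched pairs was chosen after seeing the data and has 6 libraries and 1 residual degree of freedom. Compared with the age-matched chow library of the same sequencing set, HC was 2.29-fold lower than CC (log2 ratio -1.19, 95% interval -1.71 to -0.68) and HHC 4.05-fold lower than CCC (-2.02, -2.28 to -1.76). With clusters in place of the gate the HC ratio turned to 0.22. HC and HHC were also the libraries with the highest mitochondrial share, 1.91% and 3.03%, whose part in these values was not tested. Within NPVM-like nuclei, HC was 1.81-fold and HHC 3.85-fold lower than their chow libraries (log2 ratios -0.86, -1.53 to -0.18, and -1.95, -2.26 to -1.62). Without the clusters named above, Ccr2 in NPVM-like nuclei was at 60.0 CPM in C (12 UMIs), 82.5 in HC (38 UMIs) and 66.3 in HHC (116 UMIs). The order of these values was not tested.

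Within macrophage-like nuclei, the 2 groups given HFD for the last 4 weeks had the highest Ccr2. HCH exceeded CCH by 1.28-fold over macrophage-like nuclei (log2 ratio 0.35, 95% interval 0.26 to 0.44), but within NPVM-like nuclei HCH was 1.29-fold lower than CCH (log2 ratio -0.36, -0.47 to -0.26). Both ratios depended on the clusters with dendritic markers or with the same leading genes. Only clusters named for macrophages were searched for these. Without the clusters found, Ccr2 over macrophage-like nuclei was at 15.8 CPM in C, 65.4 and 59.8 in H and HH, 29.99 in HHC, and 64.3 and 194 in CCH and HCH, while CC, CCC and HC were as before. CC and CCC each held an unnamed cluster (131 and 169 nuclei) with Cd226 among its leading genes, which stayed in. Their levels are therefore not like for like with the others. CCH then lay below CCC, from which no cluster was taken. HC and HHC lay above C, and HCH was above CCH both over the class and within NPVM-like nuclei. NPVM-like nuclei were 2132 of 3532 macrophage-like nuclei in HCH and 531 of 1826 in CCH. The mesothelial-like level of Ccr2 was 48.1 CPM in HCH and 7.96 to 14.0 CPM in the other 8 libraries.

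Over single pairs of libraries, the number of the 9 genes past 2-fold in macrophage-like nuclei is set here beside the share of all genes with at least 20 UMIs in the pair. H with C had 6 higher and 0 lower, against 26.5% and 13.5% of all genes. HH with C had 4 higher and 1 lower, Ccl7 (28.4% and 12.4%), and HH with CC, which crosses the sequencing sets, had 9 higher and 0 lower (31.0% and 14.3%). HC with CC had 1 higher, Cx3cr1, and 1 lower, Ccr2, of the 4 with enough UMIs (9.31% and 12.2%). HHC with CCC had 4 higher and 2 lower, Ccr2 and Ccl7 (14.4% and 10.1%). HCH with CCH had 5 higher and 0 lower (17.4% and 3.56%). The median log2 ratio over all genes ranged from -0.03 (HC with CC) to 0.26 (HH with CC). These pairs share libraries, have 1 library on each side, and carry no test.

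In progenitor-like nuclei, 6 of the 9 genes were higher in HFD than chow and none lower, with 9.40% of 16766 genes higher and 6.41% lower. Of all called genes 59.5% were higher, and 70.3% under scaling by library totals. Ccl7 and Ccl2, the pair that stood above free RNA in these nuclei, differed by 2.56 ± 0.56 and 2.40 ± 0.70 on the log2 scale (edgeR adjusted p = 0.0189 and 0.0475). Ccl7 lost its call in 5 of 16 alternatives, without each of CC, CCC, H and HH and with the sequencing set as a term (edgeR adjusted p = 0.10 in the latter). Ccl2 lost it in 9 of 16, in the same 5 and with DESeq2, without CCH and HCH together, with clusters in place of the gate and with doublets kept, with adjusted p up to 0.221. For both genes every S075 library was above every S019 library. Against C of the same set, H was 4.32-fold higher for Ccl7 (log2 ratio 2.11, 95% interval 1.72 to 2.52) and 3.46-fold higher for Ccl2 (1.79, 1.51 to 2.08). The other 4 were Ccl6, Ccl9, Ccl8 and Cx3cr1, with differences of 2.83, 3.16, 3.27 and 1.63 (edgeR adjusted p = 0.00420, 0.00481, 0.0141 and 0.0255). Ccl8 lost its call without H or HH, Cx3cr1 without each of CC, CCC, H and HH, and both with the sequencing set as a term, with adjusted p up to 0.208, while Ccl6 and Ccl9 kept theirs in all 16 alternatives. None of these 4 passed between progenitor-like and mesothelial-like nuclei, and macrophage markers moved with them. Of 12 macrophage markers, 8 were higher and 1 lower in the same fit, with a median of 1.90. Their summed level in progenitor-like nuclei was 418 to 607 CPM in the chow libraries and 1530 and 2280 CPM in H and HH, against 8104 and 8691 CPM in macrophage-like nuclei of H and HH, and all 12 were detected in H and HH. Their part in the 4 differences was not tested. In WL against chow, none of the 9 passed in progenitor-like nuclei by edgeR (3 at an unadjusted p under 0.05) or by DESeq2, with 0.919% of all genes higher and 0.280% lower.

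Summed over all nuclei of a library, all 9 genes were higher in HFD than chow, with 15.0% of 21222 genes higher and 11.7% lower and a median of 2.80 for the 9 genes. In these sums more cells of a type and more RNA per cell cannot be told apart, and macrophage-like nuclei were 4753 of 9610 in H and 1710 of 11119 in C. Ccr2, which was not called within macrophage-like nuclei, differed by 1.13 ± 0.35 over all nuclei (edgeR adjusted p = 0.0490). That call was lost in 9 of 15 alternatives, without each of C, CC, CCC, H and HH, without CCH and HCH together, under RLE size factors, under library totals and with the sequencing set as a term, with adjusted p up to 0.195. Of the others, Ccl2 and Ccl7 lost theirs without each of CC, CCC, H and HH, Ccl8 also without C, Cx3cr1 without CC, H or HH, Ccl6 without H or HH and Ccl4 without H, with adjusted p up to 0.245. With the sequencing set as a term, Ccl3 and Ccl9 kept their calls over all nuclei (edgeR adjusted p = 0.0430 and 0.0484). With age-matched pairs as block, HFD was H against C alone, and the 9 genes differed by log2 values of 1.03 (Ccr2) to 6.53 (Ccl3). In WL against chow, Ccl3 was higher over all nuclei by 3.69 ± 0.68 (edgeR adjusted p = 0.0265), with 3.70% of all genes higher and 2.10% lower. It lost its call without each of C, CC, CCC, H, HH and HHC and with the sequencing set as a term, with adjusted p up to 0.104.

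**Figure D3:**
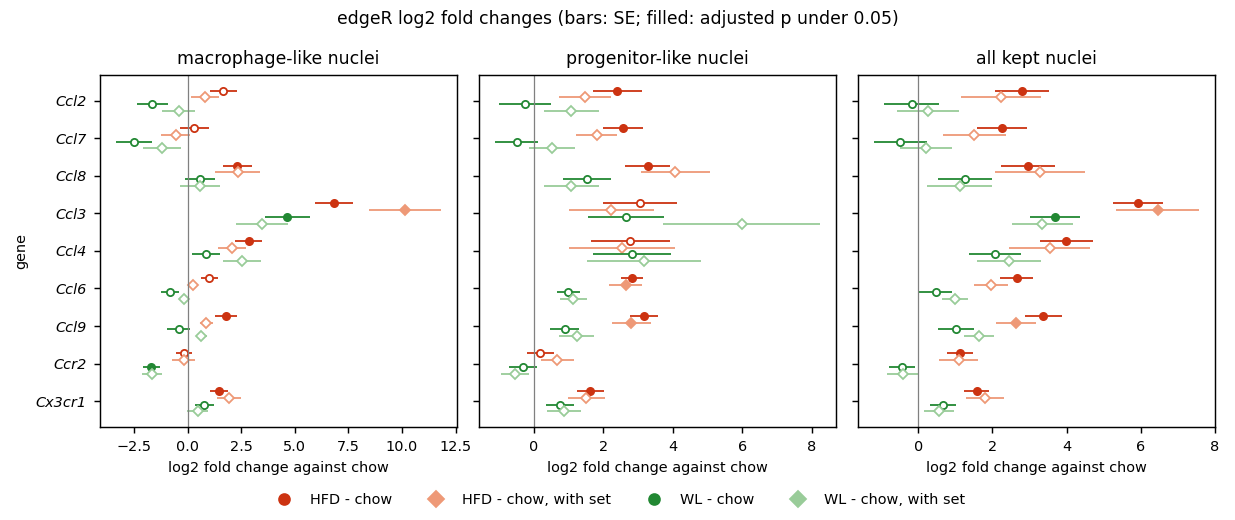
Fitted log2 differences (edgeR, ± SE) of HFD and WL against chow for the 9 genes in macrophage-like, progenitor-like and all nuclei, without and with the sequencing set as a term. The macrophage-like HFD difference of Ccl3 is 6.83 without and 10.14 with the term, that of Ccl9 is 1.81 and 0.87, and that of Ccl7 turns from 0.31 to -0.57.

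The other chemokine genes gave a frame for these values. Of 29 further ligands, 20 were tested in macrophage-like nuclei, and 5 were higher on HFD, Ccl21a, Ccl5, Cxcl16, Cxcl2 and Pf4, with a list median of 1.55, where 17.6% of all genes were higher. Cxcl16, a transmembrane chemokine for Cxcr6, was at 3.51 to 6.63 CPM in the chow libraries, 22.1 and 26.0 in H and HH, and 10.6 and 16.0 in HC and HHC, and it was higher in HFD (2.36 ± 0.33, edgeR adjusted p = 0.00138) and in WL (1.62 ± 0.34, edgeR adjusted p = 0.0244). The WL call was lost without each of C, CC, H, HH and HHC, with the sequencing set as a term, with clusters in place of the gate and without the limit on genes, with adjusted p up to 0.307 over the alternatives. Ccl24, an eosinophil attractant, was lower in WL (-2.51 ± 0.47, edgeR adjusted p = 0.0145), at 7.72 to 15.6 CPM in chow and 1.51 and 2.29 in HC and HHC, a call lost without HHC (edgeR adjusted p = 0.105). The ligands with most UMIs in macrophage-like nuclei were Ccl25 (3904), Pf4 (3885) and Cxcl12 (1245), and Ccl25 stayed between 62.2 and 69.2 CPM in all 9 libraries. Pf4, the platelet factor that macrophages also make, was at 20.1 to 24.6 CPM in chow, 69.6 and 112 in H and HH, and 9.84 and 16.3 in HC and HHC.

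Among the further receptors tested in macrophage-like nuclei, Ccr3 and Ccrl2 were higher on HFD, by 3.04 ± 0.79 and 3.19 ± 0.69 (edgeR adjusted p = 0.0166 and 0.00798). Ccr3 lost its call without H or HH and with the sequencing set as a term (adjusted p up to 0.0927), and Ccrl2 without HH (adjusted p = 0.0563). Ccr1, the receptor for Ccl6 and Ccl9, held 1650 UMIs there and Cxcr4 held 1165. Ackr3, a scavenging receptor, was lower in WL (-1.39 ± 0.35, edgeR adjusted p = 0.0465), a call lost without any 1 of the chow, HFD and WL libraries, under RLE size factors or library totals, with the sequencing set as a term and with clusters, with adjusted p up to 0.120. In progenitor-like nuclei, 10 of 20 further ligands were higher on HFD, Ccl11, Ccl21a, Ccl27a, Ccl5, Cxcl1, Cxcl12, Cxcl14, Cxcl2, Cxcl5 and Pf4. Of 12 macrophage markers, 8 were higher in the same fit, with a median of 1.90, and Pf4 is itself expressed by macrophages. Ccl21a, among the leading genes of lymphatic endothelial clusters, was higher by 2.13 in macrophage-like nuclei, 2.80 in progenitor-like nuclei and 2.31 over all nuclei. The part of RNA from other cells in these ligands was not tested. None of 14 receptors passed there by edgeR (5 at an unadjusted p under 0.05), and DESeq2 called 1. Over all nuclei, 26 further ligands were tested. Of these, 7 were higher on HFD and Ccl28 lower (15.0% and 11.7% of all genes), Ccl24 and Ccl28 were lower in WL (2.10% of all genes), and, of the receptors, Ccr1, Ccr3, Ccrl2 and Cxcr4 were higher on HFD. With the sequencing set as a term, the further ligands called on HFD went from 5 to 3 in macrophage-like nuclei, from 10 to 2 in progenitor-like nuclei (where 9.40% of all genes were higher without the term) and from 8 to 2 over all nuclei. The receptors called over all nuclei went from 5 to 1.

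Across 103 sums of class and library in 12 classes, Ccl6 and Ccl9 were each other's most alike gene among 16978, with a Pearson r of 0.85 on log2(CPM + 1). C5ar1 (0.82) and C1qa (0.78) came next for Ccl6, and Fcer1g (0.84) and Cd68 (0.83) for Ccl9. Ccl3 was most like Ccl4 (0.72), Gm16262 (0.69) and Ccr3 (0.68), and Ccl4 was most like Ccl5 (0.73), then Ccl3 and Gm20234 (0.69). Ccl2 lay nearest to Tmem258 (0.78) and the mast cell protease genes Cma1 (0.77) and Mcpt4 (0.74). Ccl7 was most like Ltc4s (0.70), Ccl8 and Ccl2 (both 0.63), and Ccl8 was most like Pf4 (0.80), Lum (0.73) and Apoe (0.73). Ccr2 was nearest to Gna15, Cd226 and Mfsd14a (all 0.74), and Cx3cr1 to 1600010M07Rik (0.57), Slc24a5 (0.57) and Cma1 (0.54). These sums share libraries, depth and free RNA, and the values are a description over sums that are not independent.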

How the data were processed

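Nuclei of epiAT were profiled by droplet snRNA-seq in 9 libraries. The deposited values are raw UMI counts per gene and barcode, which per the labels and methods the authors made with Cell Ranger 6.1.2 on mm10 with intronic reads. The later filters of the authors (Seurat 4.1.0) are not in these counts. Here nuclei with 500 to 3000 genes and at most 40000 UMIs were kept, and doublets called by Scrublet at an expected 0.8% per 1000 nuclei were removed. Its automatic threshold was used in the 5 S075 libraries and the top scores at the expected rate in the 4 S019 libraries, so the call differed along the sequencing set (2.21% to 5.78% and 3.74% to 5.49% of nuclei). A nucleus was classed from fixed markers by a Poisson likelihood (posterior of at least 0.9, at least 3 UMIs of 2 markers), and values were given for classes of at least 20 nuclei in a library. Counts were summed per class and library, and summed counts were tested with edgeR 4.0.16 (quasi-likelihood, TMM, filterByExpr, Benjamini-Hochberg over all genes, threshold 0.05), with all 9 libraries in the diet fits so that they share 1 estimate of the spread, and with DESeq2 1.42.0 as an alternative. With 1 library per group, the diet fits rest on the spread between libraries of different ages and times on diet. Ratios of 2 libraries carry exact 95% intervals for counting error only, and a count of 0 was taken to allow up to 3 counts. The members and lists were chosen with earlier results of these data known, and the class comparisons within libraries were added after seeing the data. Named were all 9 members, the further chemokine genes past the edgeR threshold or with the 3 highest UMI counts in macrophage-like nuclei, and the 3 genes most like each member. 1 gene that this rule names is not reported here. Alternatives were RLE size factors, library totals, no filter, the sequencing set as a term, leaving out CCH and HCH, clusters in place of the gate, no limit on genes, doublets kept and leaving out each library, and, added after seeing the data, age-matched pairs as block and levels without clusters that held mostly dendritic markers or shared their leading genes. With clusters in place of the gate, a cluster took the class that most of its gated nuclei carried, and kinds of macrophage kept their gated labels. That alternative is therefore not independent of the gate. On counts simulated with a dispersion of 0.05 (HFD against chow, 16041 genes, 200 changed) the fit recovered 31% of 2-fold and 98% of 4-fold changes. Recovery at a larger spread was not tested.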

Additional observations from a re-analysis of the deposited data

How the results depend on the processing

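The class comparisons had the library as block. For the diets, a fit added after seeing the data took the pairs of libraries of 1 age and sequencing set (C with H, CC with HC, CCC with HHC) as block, with 1 residual degree of freedom and other mice in each library, and is not among the alternatives counted elsewhere. This fit tested 14868 genes in macrophage-like nuclei, 16162 in progenitor-like nuclei and 20301 over all nuclei, with all 9 members tested each time. Genes called were then 3431 for HFD and 1745 for WL in macrophage-like nuclei, 3394 and 1665 in progenitor-like nuclei, and 1817 and 1267 over all nuclei, and members called were 5 and 1, 5 and 1, and 2 and 1. Cx3cr1 in progenitor-like nuclei on HFD lost its call (adjusted p = 0.155) and Ccl6 there in WL gained one (adjusted p = 0.0211). Not called in either fit, Ccl7 in macrophage-like nuclei on HFD turned to -0.072, and in WL Ccl9 turned to 0.56 there and Ccl2 and Ccl7 in progenitor-like nuclei to 0.79 and 0.31. The class comparisons were the steadier results. Leaving out a library in turn, the genes called ranged from 8526 to 9322 for macrophage- minus mesothelial-like (members 8 to 8), 6316 to 6941 for progenitor- minus mesothelial-like (2 to 2), 5255 to 6221 for T- or NK-like (4 to 6), 4610 to 5778 for dendritic-like (2 to 3), 2684 to 3330 for NPVM- minus PVM-like (5 to 6) and 2741 to 3815 for LAM- minus NPVM-like (5 to 6).

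The diet counts moved. In macrophage-like nuclei the HFD genes called went from 5590 to 3374 and the members from 5 to 1 with the sequencing set as a term, and without 1 library they were 2214 (without H) to 6066 (without HC) and 2 (without CC) to 6 (without HC). The WL genes called went from 1020 to 1741 without the limit on genes, and the members from 2 to 1 under library totals or clusters and to 0 with the set term. Without 1 library they were 321 (without HHC) to 1218 and 0 to 2. In progenitor-like nuclei the HFD genes called went from 2650 to 4268 without a filter and 624 with the set term, the members from 6 to 2 with the set term, and without 1 library they were 237 (without HH) to 3255 and 2 (without H) to 7. The WL genes called there went from 201 to 609 with DESeq2, 1585 without a filter and 324 without the limit on genes, the members from 0 to 4 without a filter, and without 1 library they were 31 (without HHC) to 313 and 0 to 0. Over all nuclei the HFD genes called went from 5673 to 1260 and the members from 9 to 2 with the set term, and without 1 library they were 556 (without H) to 6854 and 2 (without H) to 9. The WL genes called went from 1231 to 2772 with DESeq2, 674 under library totals and 756 with the set term, the members from 1 to 2 with DESeq2 and 0 with the set term, and without 1 library they were 92 (without CC) to 1557 and 0 to 3. Members past 2-fold went from 9 to 5 with C in place of CC for HH, from 2 to 1 with clusters for HC with CC, and from 6 to 3 with clusters for HHC with CCC. The cause was not tested.

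Fitted log2 differences that turned in sign were these, none of which was called under the main settings. Ranges are over leaving out 1 library in turn, with the library whose loss gave each end. In macrophage-like nuclei on HFD, Ccl7 was -0.57 with the set term and -0.45 (H) to 1.62 (C), and Ccr2 was 0.26 with clusters and -0.48 (CC) to 0.24 (CCC). In WL, Ccl4 was -0.46 (HHC) to 2.55 (C), Ccl8 was -0.45 without the limit on genes and -2.82 (HHC) to 1.33 (HC), and Ccl9 was 0.63 with the set term and -0.83 (HHC) to 0.64 (C). In progenitor-like nuclei on HFD, Ccr2 was -0.045 without the limit on genes and -0.061 (C) to 0.54 (CCC). In WL there, with the set term Ccl2 was 1.07 and Ccl7 0.52, with ranges of -2.33 (HHC) to 1.07 (C) and -1.99 (HHC) to 0.52 (C), and Ccr2 was 0.12 with clusters and -0.78 (HHC) to 0.045 (CCC). Between leaving out HHC and HC, Ccl4 was -0.22 to 3.58, Ccl8 -0.28 to 2.21 and Ccl9 -0.17 to 1.41. Over all nuclei in WL, with the set term Ccl2 was 0.26 and Ccl7 0.20, with ranges of -2.17 to 0.59 and -2.19 to 0.21 (HHC and HC), Ccl6 was -0.14 (HHC) to 0.99 (C) and Ccl8 -1.18 (HHC) to 2.11 (HC). In progenitor- minus mesothelial-like nuclei, Ccl6 was 0.0078 without a filter and -0.16 (HHC) to 0.020 (H), Ccl8 was -0.084 (HH) to 0.33 (CCH), Ccl9 was -0.047 with clusters and -0.019 (HHC) to 0.10 (CCH), and Ccr2 was 0.14 without the limit on genes. In T- or NK-like nuclei Ccl2 was -0.023 without a filter and -0.18 (HCH) to 0.26 (HH), and Cx3cr1 was -0.30 (HHC) to 0.47 (HH). In dendritic-like nuclei Ccl2 was 0.0058 under library totals, Ccl8 was -0.16 (HH) to 0.50 (H) and Cx3cr1 was -0.40 with clusters. In NPVM- minus PVM-like nuclei Ccl2 was -0.043 with clusters and -0.17 (C) to 0.35 (H). In LAM- minus NPVM-like nuclei Ccl2 was -0.16 (HH) to 0.22 (HCH), and Ccl9 was 0.055 without the limit on genes and -0.080 (HC) to 0.028 (HH). Of the ratios of 2 libraries, Ccr2 of HC with CC turned to 0.22 with clusters and Ccl8 of HHC with CCC to -1.03 without the limit on genes.

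The counts of Ccl3 and Ccl4 were low, 1033 and 1575 UMIs in all kept nuclei, and what depth alone limits was not tested.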
